A study of Mus musculus with 18 samples.

Results

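Kng1, Cpn2, Proz, Apof, Mup1 and Mup4 encode proteins known mainly as products of the liver that circulate in blood or are passed into urine. They are 6 of the 27745 gene names on the arrays and were chosen because earlier results from these same data had shown each of them to be brighter in 1 fat depot than in another. They have 11 probes, found by the gene name that the scanner files give each spot, of which 8 entered the fits because the 3 arrays of some group all showed them well above background. The depot differences are therefore given as a description, with no test.

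The samples are 18 one-colour microarrays of mouse adipose tissue in 6 groups of 3 biological replicates, which the labels do not trace to single animals or pools. All mice were young adult C57BL/6 males with no treatment or gene alteration named in the labels. The groups are the brown, inguinal and epididymal adipocyte fractions (cells that float after collagenase digestion of interscapular brown, inguinal and epididymal fat), and the brown, inguinal and epididymal stromal-vascular fractions (SVF), the pellet of the same digestion after lysis of red cells. Floating fractions can carry other cells and the pellet can carry adipocytes, so each group is an enriched fraction, not a pure cell type. P-values measure only the spread among these samples.

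Hepatocytes make most of the protein of blood plasma, and proteases and their inhibitors, carrier proteins and apolipoproteins are among it. In the kinin system, kallikreins cut kininogen to release bradykinin, a short peptide that widens vessels and makes them leaky, and carboxypeptidases then remove its last arginine or a related peptide's. Adipocytes are known to make some carrier proteins and complement factors that the liver also makes. Major urinary proteins are lipocalins, barrel-shaped carriers of small hydrophobic molecules, which male mice secrete from the liver in large amounts under the control of growth hormone.

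The 60-base probes that measured the 6 genes are shown because each value below is the brightness of 1 of them, written from 5′ to 3′. The first 4 belong to genes for which 1 probe entered the fits.
Kng1 probe A_51_P451377: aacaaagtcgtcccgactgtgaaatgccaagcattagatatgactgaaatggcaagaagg
Cpn2 probe A_51_P170562: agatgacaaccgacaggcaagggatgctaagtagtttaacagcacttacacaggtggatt
Proz probe A_51_P170959: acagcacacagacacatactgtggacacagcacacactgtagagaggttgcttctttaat
Apof probe A_51_P495825: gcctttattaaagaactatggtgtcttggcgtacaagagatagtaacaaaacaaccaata
On build mm8 the Kng1 probe lies at chr16:22992863-22994325, plus strand. It covers a span of 1463 bases, so by the array's annotation its 60 bases are not contiguous on the genome. The Cpn2 probe lies at chr16:30176555-30176614, minus strand, the Proz probe at chr8:13075860-13075919, plus strand, and the Apof probe at chr10:127672866-127672925, plus strand. None of these 4 shares a run of 20 bases with any other probe on the array, on either strand. Exon and intron annotation of this build was not used here.

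The 4 Mup probes are shown because the family's genes are near copies of one another, so a probe can bind transcripts of several of them. Capitals mark a run of 20 bases that 2 of the Mup1 probes have in common.
Mup1 probe A_51_P461703: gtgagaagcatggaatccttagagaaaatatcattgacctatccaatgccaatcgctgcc
Mup1 probe A_51_P180314: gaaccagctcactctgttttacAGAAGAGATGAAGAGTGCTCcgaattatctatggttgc
Mup1 probe A_52_P348256: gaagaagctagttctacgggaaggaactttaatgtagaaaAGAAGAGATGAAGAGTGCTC
Mup4 probe A_51_P266883: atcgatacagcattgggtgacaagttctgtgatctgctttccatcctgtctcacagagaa
All 4 map to the minus strand of chromosome 4 on mm8, at chr4:60473446-60473669, chr4:60555070-60555129, chr4:61004429-61005728 and chr4:60051006-60051065 in the order printed. The brightest Mup1 probe, A_51_P461703, and the Mup4 probe have no common run longer than 6 bases. The array's own annotation lists several reference transcripts for A_51_P461703 and describes the transcript of A_51_P180314 as similar to other major urinary proteins, so the names Mup1 and Mup4 below are those of the probes.

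Each level is a log2 ratio, the probe's processed signal over the signal at the 75th percentile of its array, so a level of 0 is that percentile. A level is marked as below background where the scanner software did not call the spot well above background, and it is then only an upper bound. Levels of different probes are not compared, because probes differ in brightness for reasons other than transcript number. In these bulk samples, fewer cells of a type and less RNA per cell cannot be told apart.

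The arrays' 75th percentiles ran from 338 to 1259 intensity units, and 49.6 to 72.3% of probes were well above background on 17 arrays, and 87.9% on epididymal adipocyte array 1. The mature adipocyte markers summed to 1221 to 2965 times the 75th percentile on the adipocyte arrays and to 326 to 1100 times it on the SVF arrays, and the brown adipocyte markers to 803 to 1309 in brown adipocytes. Some libraries stood apart from their groups. Inguinal SVF array 1 had a mesothelial marker sum of 130, against 0.201 and 0.321 on the other inguinal SVF arrays, and inguinal SVF array 2 had a skeletal muscle marker sum of 33.1, against 1.10 and 1.27. Inguinal SVF array 3 had a lymphocyte marker sum of 46.7, against 0.973 and 9.48. Brown SVF array 2 had a mature adipocyte sum of 1100, against 534 and 449, and a hepatocyte sum of 43.8, against 2.38 and 1.09. Most of that hepatocyte sum was Cyp2e1, at 5.43 there, a marker that was also bright on every adipocyte array. Ucp1, the uncoupling protein of brown adipocytes, stood at 4.51 on epididymal adipocyte array 3, against -3.34 and -1.05 on arrays 1 and 2. The 6 inguinal and epididymal adipocyte arrays were read with Feature Extraction 9.5.3.1 on slides and scan days of their own, and the other 12 arrays with version 10.5.1.1, so in every comparison that has white adipocytes on 1 side, group and software, slide or scan day cannot be told apart. Inguinal and epididymal adipocyte arrays shared no slide or scan day either. The brown adipocyte and brown SVF arrays were spread alike over the same slides and scan days.

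Kng1 encodes kininogen, the precursor of bradykinin and an inhibitor of cysteine proteases, and Cpn2 encodes the large regulatory subunit of carboxypeptidase N, the plasma enzyme that cuts the last arginine from kinins and complement peptides. Both were bright in brown adipocytes and dim or below background in nearly all other groups. The Kng1 levels were -0.04, 0.28 and 1.06 in brown adipocytes, against -4.51, -3.88 and -3.05 in brown SVF. The adipocyte arrays averaged 0.43 ± 0.56 and the SVF arrays -3.82 ± 0.73 (SD, n = 3 each). All 3 brown adipocyte arrays lay above all 3 brown SVF arrays, by 4.25 ± 0.85 log2 units (SE; adjusted p = 0.00307, limma, Benjamini-Hochberg over all 28595 probes that entered the fits).

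Cpn2 levels were 0.10, -0.53 and -0.35 in brown adipocytes, against -4.72, -4.06 and -3.81 in brown SVF. Here too the fractions did not overlap, and the difference was 3.94 ± 0.78 log2 units (SE; limma adjusted p = 0.00273). The fraction tests use the adipocyte arrays whose depot pattern chose the genes, so they are no independent support for that pattern. The same holds below for Proz in epididymal fat and for the Mup probes in inguinal fat. Since the genes were chosen as bright on those arrays, the choice favours these calls, and their p-values do not allow for it. Of the 8 member probes in the fits these 2 were called higher in brown adipocytes than in brown SVF and none lower. Over all probes, 10.9% were called higher and 7.06% lower. The median difference of the 8 probes was 3.44, against 0.12 over all probes. However, 4 of the 8 are Mup probes of one gene family, not independent and not called here. Apof was below background on every brown array.

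The differences between brown fractions were about as large within slides. On the slide that holds replicates 1 and 2 of both fractions, the mean Kng1 difference was 4.32 and that of Cpn2 4.17. On the slide with replicate 3 they were 4.11 and 3.46. Both calls held under each of 31 other settings of the analysis, with Kng1 between 3.02 and 4.63 and Cpn2 between 2.79 and 4.17.

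In the white depots neither gene was high in adipocytes. Kng1 in inguinal adipocytes was at -4.95 below background, -5.26 and -4.86, against -0.39, -1.26 and -5.15 below background in inguinal SVF. The inguinal fractions overlapped because SVF array 3 was as dim as the adipocytes, while SVF arrays 1 and 2, those with high mesothelial and muscle marker sums, were bright. Whether those cells had a part in the Kng1 level was not tested. The fitted difference was -2.76 ± 0.85 (limma adjusted p = 0.0435), and it lost the call in 23 of 28 other settings, for example -1.82 with adjusted p = 0.155 without inguinal SVF array 1.

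Kng1 in epididymal adipocytes was at -4.11, -4.71 and -4.04 below background, against -3.43, -4.93 and -3.99 in epididymal SVF. These fractions overlapped, and the difference of -0.17 ± 0.85 did not pass the test (limma adjusted p = 0.909). A second Kng1 probe, A_52_P151983, starts 18966 bases before the first on chromosome 16. It was well above background on 2 arrays, epididymal adipocyte array 1 at -5.17 and inguinal SVF array 2 at -3.74, and so not on any brown adipocyte array. The 2 Kng1 probes thus disagree on brown adipocytes, and the brown pattern of Kng1 rests on A_51_P451377 alone.

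Cpn2 was at -6.29 and -6.67 below background and -4.32 in inguinal adipocytes, against -6.37, -7.16 and -7.14 in inguinal SVF, all below background. In epididymal adipocytes it was at -5.23, -7.64 below background and -3.64, against -7.71, -8.02 and -6.83 in epididymal SVF, all below background. The brightest white adipocyte array for Cpn2 in each depot was array 3, and Ucp1 was also highest there. Ucp1 was at 4.34 on inguinal adipocyte array 3, against 1.99 and 2.18 on the other arrays of that group. On epididymal adipocyte array 3 it was at 4.51. Whether cells with Ucp1 had a part in the Cpn2 level was not tested. Neither white depot's fraction difference passed the test, with 1.13 ± 0.78 in inguinal fat (limma adjusted p = 0.346) and 2.02 ± 0.78 in epididymal fat (limma adjusted p = 0.0745).

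Between depots, Kng1 was higher in brown than in inguinal adipocytes by 5.46 log2 units and higher in brown than in epididymal adipocytes by 4.72, and Cpn2 by 5.50 and 5.24. These sizes depend on the background correction: under the normexp model they were 2.01 and 3.22 for Kng1 and 1.57 and 2.93 for Cpn2. In the deposited matrix they were 3.57 and 3.69 for Kng1 and 3.22 and 3.37 for Cpn2. On the levels given above, for both genes all 3 brown adipocyte arrays lay above every other array in the study. In the order of Kng1 means, brown adipocytes stood apart from inguinal SVF below them, and the next 3 neighbours overlapped. The last pair, epididymal above inguinal adipocytes, did not overlap but differed little (inguinal minus epididymal, -0.74) and changed order under 3 other scalings. For Cpn2 all neighbours below brown adipocytes overlapped. The brown SVF was at least 1.77-fold brighter for Cpn2 than inguinal SVF and at least 2.67-fold brighter than epididymal SVF, bounds set by the faintest probes above background there. The first of these directions turned under normexp, where brown minus inguinal SVF was -1.05 log2 units. Brown minus epididymal SVF was 1.05 under normexp and 0.82 in the matrix, against 3.32 in the levels used here.

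**Figure D1:**
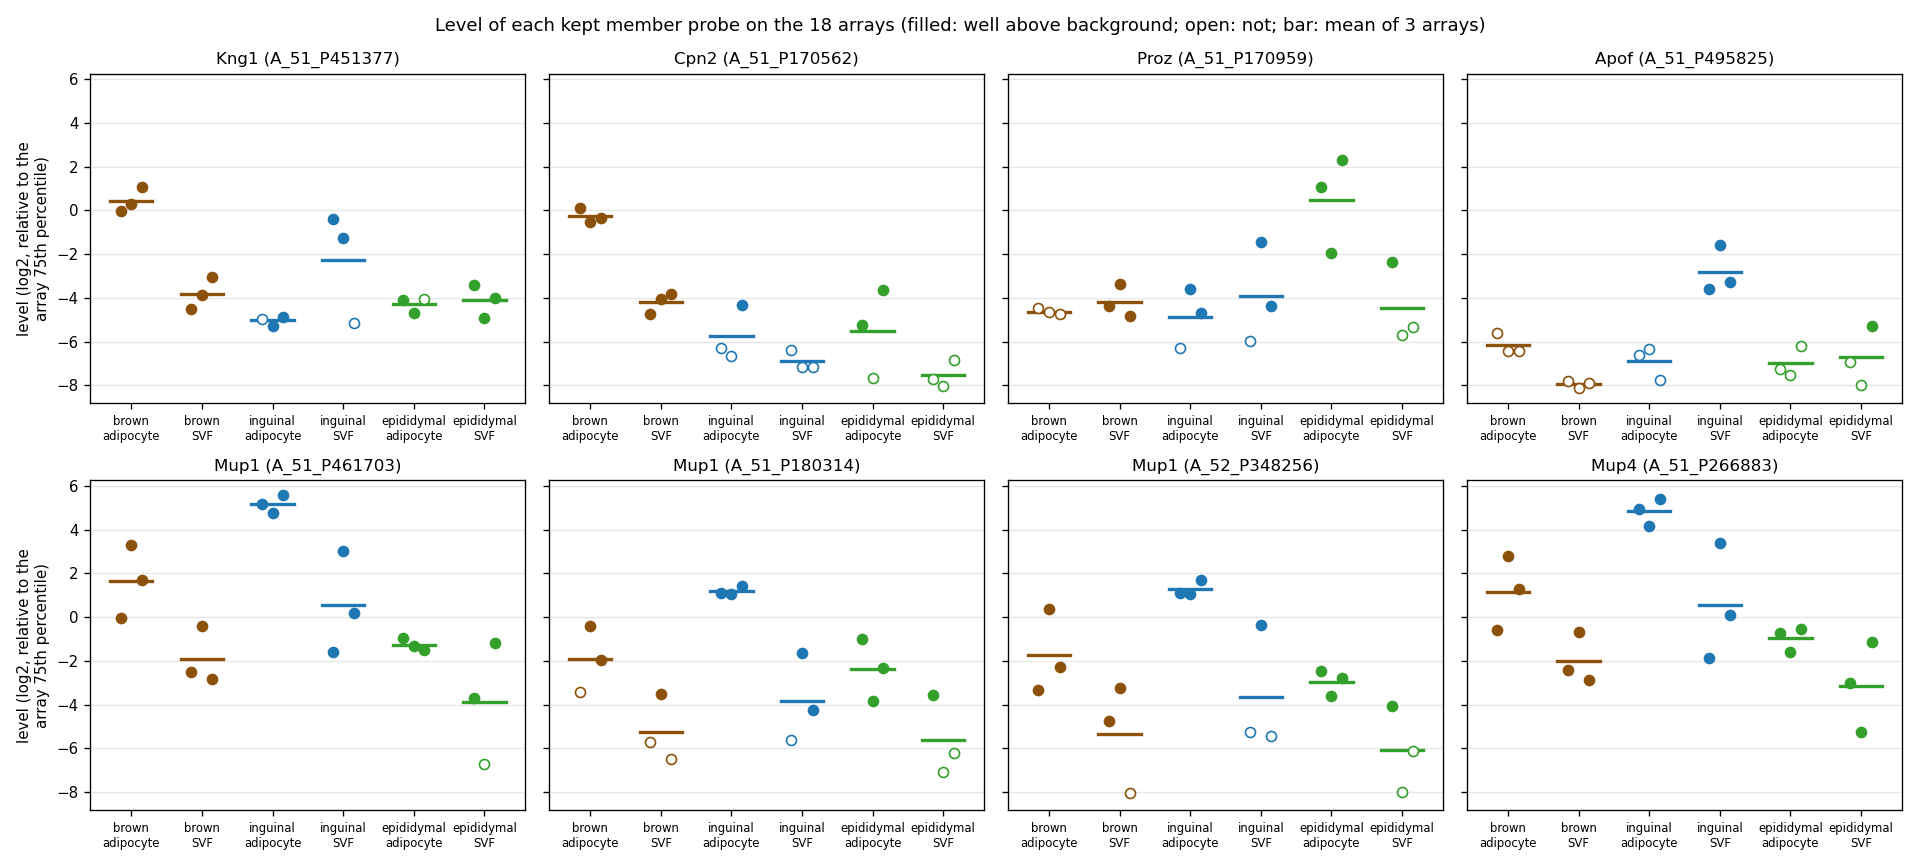
Level of the 8 member probes that entered the fits (log2 relative to the 75th percentile of the array) on each of 18 arrays, in adipocytes and SVF of the brown, inguinal and epididymal depots. Filled points are well above background, open points are not, and bars are means of 3 arrays; Kng1 and Cpn2 are highest in brown adipocytes, Proz in epididymal adipocytes, Apof in inguinal SVF and the 4 Mup probes in inguinal adipocytes.

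Hepatocyte markers were read beside Kng1 and Cpn2. Of 11 hepatocyte markers on the array, 4 to 6 were well above background on a brown adipocyte array, against 6 or 7 on a brown SVF array. Apoa1, Apob, Ahsg, Cps1 and Ttr were below background on all 3 brown adipocyte arrays, and Alb, the gene of serum albumin, was above background on 2 of them, at -2.71, -4.11 and -3.87, against -5.11, -2.61 and -4.41 in brown SVF. Serpinc1 and Tat were above background on all 3. Serpinc1 was at -2.06, -2.23 and -1.97, against -2.58, -2.96 and -3.11 in brown SVF. Hnf4a was at -4.11, -4.08 and -3.46, with 2 arrays above background, against -4.52, -4.65 and -4.54. Neither of these differences passed the test (limma adjusted p = 0.0933 and 0.489). The part of any hepatocyte RNA in the Kng1 and Cpn2 levels was not tested. The summed hepatocyte level was 16.3 to 50.1 in brown adipocytes and 1.09 to 43.8 in brown SVF, and on the adipocyte arrays most of it came from Cyp2e1, at 3.96 to 5.63 in brown adipocytes and -0.89 to 5.43 in brown SVF.

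The rest of the kinin list did not follow Kng1 and Cpn2 in brown fat. Of 13 other genes, 9 were tested, and in brown adipocytes against brown SVF none rose and 3 fell, with a list median of -0.18 against 0.12 over all probes. Shares over all probes were 10.9% higher and 7.06% lower. The 3 were Serping1, the C1 inhibitor that blocks plasma kallikrein, at -4.32 ± 0.54 (adjusted p = 0.000177), Ace, the enzyme that degrades bradykinin, at -2.83 ± 0.53 (adjusted p = 0.00189), and Prcp, a carboxypeptidase that can activate prekallikrein, at -1.30 ± 0.36 (limma adjusted p = 0.0206). Kng2, the second kininogen gene, was not well above background on any array. Cpn1, the catalytic subunit that Cpn2 binds, and Klkb1, plasma prekallikrein, were above background on 2 arrays each, and F12, the factor that activates it, on 5.

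In epididymal fat 5 of these 9 rose in adipocytes and 2 fell, with a median of 2.25 against 0.08 over all probes. Of all probes, 16.3% were called higher and 6.21% lower there, and 9.17% and 4.75% in inguinal fat. Cpb2, a plasma carboxypeptidase with the same cleavage as carboxypeptidase N, rose by 5.26 ± 1.17 (limma adjusted p = 0.00622). The bradykinin receptor Bdkrb2 rose by 3.21 ± 0.60 (limma adjusted p = 0.00285), neprilysin, Mme, by 2.82 ± 0.59 (limma adjusted p = 0.00475) and the tissue kallikrein Klk1 by 2.33 ± 0.61 (limma adjusted p = 0.0145). In inguinal fat Mme rose by 2.30 and Serping1 and Ace fell by 2.18 and 1.73. Serping1 and Ace fell in all 3 depots.

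Proz encodes protein Z, a vitamin K-dependent plasma protein that holds the inhibitor Serpina10 on coagulation factor X in its active form. It was brightest in epididymal adipocytes. Its levels there were 1.07, -1.96 and 2.29, against -2.33, -5.71 below background and -5.35 below background in epididymal SVF. The epididymal adipocytes averaged 0.47 ± 2.19 (SD, n = 3), and array 2 was the dim one, yet all 3 adipocyte arrays lay above the SVF arrays. The difference was 4.93 ± 1.19 log2 units (SE; limma adjusted p = 0.00957). Among the 8 member probes, Proz was the 1 called higher in epididymal adipocytes and none was called lower, where 16.3% of all probes were called higher and 6.21% lower.

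The Proz call held in each of 28 other settings, between 3.44 and 6.15, with adjusted p-values up to 0.0499. Without epididymal adipocyte array 3, the array with Ucp1, the difference was 4.02 (limma adjusted p = 0.0499). Further Proz probes lie upstream on chromosome 8, at chr8:13073855-13073914 and chr8:13072454-13072513. Probe A_52_P356068 was well above background on epididymal adipocyte array 1 only, at -3.59, and probe A_52_P203398 on epididymal adipocyte arrays 1 and 3, at -4.43 and -2.39. All 3 Proz probes were thus detected in epididymal adipocytes, the fainter pair in no other group. That pair gives little weight. A_52_P356068 was detected on array 1 alone, the one where 87.9% of all probes passed. A_52_P203398 was brighter on array 3, where 62.8% passed, but was below background on array 2, at -7.68. On both probes the epididymal fractions overlapped. Their bounds over epididymal SVF were 1.04-fold and 1.72-fold, and 0.53-fold without adipocyte array 1 and 0.74-fold without array 3.

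In the other depots Proz was low. It was at -4.47, -4.65 and -4.76 in brown adipocytes, all below background, against -4.36, -3.36 and -4.84 in brown SVF. It was at -6.31 below background, -3.58 and -4.68 in inguinal adipocytes, against -5.96 below background, -1.46 and -4.36 in inguinal SVF. Both pairs overlapped, and neither difference passed the test, with -0.44 (limma adjusted p = 0.845) in brown and -0.93 (limma adjusted p = 0.638) in inguinal fat. Among adipocytes, brown was at least 22.9-fold dimmer than epididymal, a bound that was 12.1-fold without epididymal adipocyte array 3 and 53.0-fold without array 2, the dim one. Brown minus epididymal was -5.09 log2 units and inguinal minus epididymal -5.32, both with no overlap. Under normexp these were -3.01 and -2.17, the smallest over 22 other settings, and the largest were -6.30 and -6.53. Inguinal SVF array 2, at -1.46, exceeded epididymal adipocyte array 2, so even the top pair of groups in the Proz order overlapped.

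Mesothelial markers were present in both epididymal fractions, with summed levels of 11.8 to 22.2 in adipocytes and 10.3 to 61.7 in SVF and 6 of 6 genes well above background on each of these arrays. On inguinal SVF array 1, where that sum was 130, Proz was below background. Of 4 markers of the epididymal duct's epithelium, none was above background on an epididymal adipocyte array. Whether mesothelial or duct cells had a part in the Proz level was not tested. Hepatocyte markers above background numbered 11, 6 and 6 of 11 on the 3 epididymal adipocyte arrays, with array 1 the one where 87.9% of all probes passed, against 7, 4 and 10 on the epididymal SVF arrays. The hepatocyte sum was 55.3 to 106 in epididymal adipocytes and 4.34 to 20.0 in epididymal SVF, and its part in the Proz level was not tested. Nearly all of the adipocyte sum was Cyp2e1, at 6.38, 6.71 and 5.73 in epididymal adipocytes, against 3.59, 4.28 and 0.82 in epididymal SVF.

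Of 24 other coagulation genes 18 were tested. In epididymal adipocytes 4 rose and none fell, with a median of 0.13 against 0.08 over all probes. Of all probes, 16.3% were called higher and 6.21% lower there, so nothing is read from this count. The same shares were 9.17% and 4.75% in inguinal fat and 10.9% and 7.06% in brown fat. Serpina10, the inhibitor that protein Z serves, rose by 2.02 ± 0.49 (limma adjusted p = 0.00985), antithrombin, Serpinc1, by 2.09 ± 0.31 (limma adjusted p = 0.000962), and the clotting factors F9 and F11 by 2.11 and 2.17. Serpinc1 is also 1 of the hepatocyte markers. It was the 1 gene of the list that rose in inguinal adipocytes, by 1.96 ± 0.31 (limma adjusted p = 0.00141). In brown adipocytes none rose, and Procr, the endothelial receptor for protein C, and F13a1, the subunit of factor XIII found in macrophages, fell by 3.55 and 3.01.

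**Figure D2:**
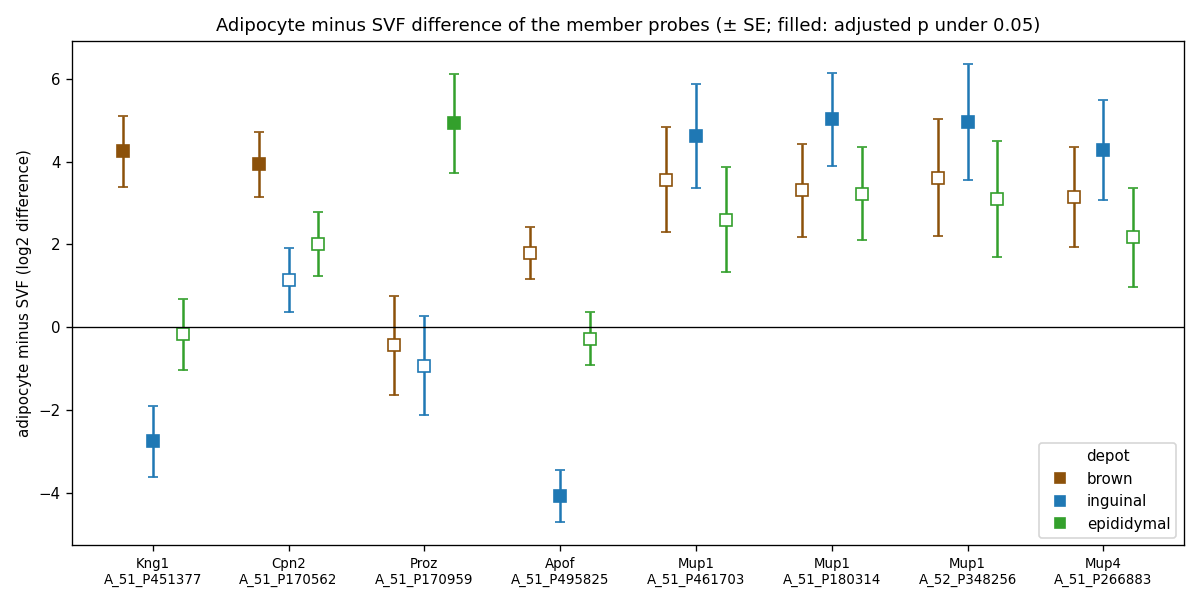
Adipocyte minus SVF difference (log2) of the 8 member probes in the brown, inguinal and epididymal depots. Points are fitted differences and bars their SE. Filled points have a limma adjusted p under 0.05. These are Kng1 and Cpn2 in brown fat, Proz in epididymal fat, and, in inguinal fat, the 4 Mup probes, Kng1 and Apof. Inguinal Kng1 and Apof lie below 0. Apof there is set against the group that holds its depot bias and that alone brought it past the filter, so its point is no test. The other filled points, apart from inguinal Kng1, also rest on the group whose depot bias chose the gene. That choice favours them, and their p-values do not allow for it.

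Apof encodes apolipoprotein F, which in human plasma inhibits the transfer of cholesteryl esters between lipoproteins. It was detected in SVF and on no adipocyte array. Its levels were -6.63, -6.31 and -7.75 in inguinal adipocytes, all below background, against -3.59, -1.60 and -3.27 in inguinal SVF. All 3 inguinal SVF arrays were above background, with a mean of -2.82 ± 1.07 (SD, n = 3). Inguinal adipocytes were at least 6.34-fold dimmer than inguinal SVF, or at least 4.15-fold without inguinal SVF array 2, and the fitted difference was -4.08. The depot bias for which Apof was chosen lies in inguinal SVF, the only group that brought it past the filter on dim probes, so this difference is a description with no test.

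Without inguinal SVF array 1, the one with mesothelial markers, the Apof difference was -4.46. Without array 2, the brightest for Apof and the one with muscle markers, it was -3.46. Under background correction by the normexp model it was -0.60. Hepatocyte markers above background numbered 4, 11 and 10 of 11 on inguinal SVF arrays 1, 2 and 3, and their sums were 4.17, 28.6 and 3.60. Apof was above background, at -3.59, on array 1, which had 4 such markers and Alb at -6.21 below background. It was brightest on array 2, where all 11 were detected. Whether hepatocyte, mesothelial or muscle cells had a part in the Apof level was not tested. Of 11 hepatocyte markers, 6 or 7 were above background on an inguinal adipocyte array, and the sum there was 57.2 to 176, nearly all of it Cyp2e1, at 5.92, 5.78 and 7.41.

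Outside inguinal SVF, Apof was above background on 1 array, epididymal SVF array 3, at -5.26. In the brown depot it was at -5.61, -6.44 and -6.42 in adipocytes, against -7.81, -8.14 and -7.90 in SVF, all below background, so the fitted 1.79 (limma adjusted p = 0.0643) has no fold behind it. In the epididymal depot it was at -7.25, -7.52 and -6.22 in adipocytes, all below background, against -6.94 and -7.96 below background and -5.26 in SVF, a difference of -0.28 (limma adjusted p = 0.793). Among SVF groups, brown was at least 8.03-fold dimmer than inguinal, and inguinal lay 3.90 log2 units above epididymal with no overlap. The other Apof groups, at or near background, have no order.

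Of 17 other apolipoprotein and lipoprotein genes 11 were tested. In inguinal adipocytes 2 rose and none fell, and the list median was 0.11 against 0.01 over all probes. Apoc1, which modulates lipoprotein uptake, rose in adipocytes of every depot, by 3.39 ± 0.89 in the brown depot, 4.28 ± 0.89 in inguinal fat and 3.44 ± 0.89 in epididymal fat. Apoe, the ligand of lipoprotein receptors, rose by 1.65 in inguinal and 0.93 in epididymal fat, and Apoc2, the activator of lipoprotein lipase, by 2.44 in epididymal fat. Apod, a lipocalin despite its name, fell by 4.43 in brown and 2.31 in epididymal adipocytes. In all, 1 rose and 1 fell of the 11 in brown fat and 3 rose and 1 fell in epididymal fat.

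The Mup probes were brightest in inguinal adipocytes. On the brightest Mup1 probe, A_51_P461703, the levels were 5.16, 4.77 and 5.57 in inguinal adipocytes, against -1.59, 3.01 and 0.21 in inguinal SVF. On the Mup4 probe they were 4.92, 4.19 and 5.39 in inguinal adipocytes, against -1.86, 3.40 and 0.11 in inguinal SVF. For each, every inguinal adipocyte array lay above every other array in the study, and the SVF arrays were spread over more than 4 log2 units with array 2 at the top. The fraction difference was 4.62 ± 1.26 on the Mup1 probe (limma adjusted p = 0.0258) and 4.28 ± 1.20 on the Mup4 probe (limma adjusted p = 0.0291).

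The other Mup1 probes gave the same order at the top. Probe A_51_P180314 was at 1.11, 1.05 and 1.41 in inguinal adipocytes, against -5.61 below background, -1.66 and -4.26 in inguinal SVF. Probe A_52_P348256 was at 1.13, 1.05 and 1.72 in inguinal adipocytes, against -5.24 below background, -0.35 and -5.41 below background in inguinal SVF. Their fraction differences were 5.03 ± 1.12 (limma adjusted p = 0.00948) and 4.97 ± 1.41 (limma adjusted p = 0.0301). In all, 4 of the 8 member probes, those of the Mup genes, were called higher in inguinal adipocytes and Kng1 lower. Apof also passed the threshold, but it is not counted as a call. Inguinal SVF holds its depot bias and alone brought it past the filter on dim probes. The Mup calls, too, rest on the group that holds their depot bias, so the choice of genes favours them. Over all probes, 9.17% were called higher and 4.75% lower. The median of the 8 probes was 2.71 against 0.01 over all probes, but 4 of the 8 are probes of one gene family and are not independent.

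Of the inguinal Mup calls, those on Mup1 probes A_51_P461703 and A_52_P348256 and on the Mup4 probe were lost without inguinal SVF array 1, SVF array 3, adipocyte array 1 or adipocyte array 3, and on A_52_P348256 without adipocyte array 2 as well. Mup1 probe A_51_P180314 kept its call with any single array left out. Without inguinal SVF array 1, the differences on A_51_P461703, A_51_P180314 and A_52_P348256 and on the Mup4 probe were 3.56, 4.15, 4.18 and 3.08, with adjusted p-values of 0.0937, 0.0398, 0.0955 and 0.106. Without inguinal SVF array 2 they were 5.86, 6.12, 6.63 and 5.71, with adjusted p-values of 0.0103, 0.00443, 0.00615 and 0.00574 (limma). Each was positive throughout, and over all other settings the 4 probes lost the call in 8 of 28, 2 of 27, 9 of 27 and 9 of 29.

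In the brown depot the Mup1 probe A_51_P461703 was at -0.05, 3.32 and 1.71 in adipocytes, against -2.50, -0.39 and -2.83 in SVF. The Mup4 probe was at -0.56, 2.80 and 1.28 in brown adipocytes, against -2.39, -0.66 and -2.89 in brown SVF. Each brown adipocyte array lay above all 3 brown SVF arrays on both probes, with array 2 the brightest in each fraction. The differences of 3.57 and 3.15 nevertheless did not pass the test (limma adjusted p = 0.064 and 0.0852). Probes A_51_P180314 and A_52_P348256 gave 3.31 (limma adjusted p = 0.0537) and 3.62 (limma adjusted p = 0.0916). These calls depended on the setting: A_51_P461703 passed in 11 of 31 other settings, A_51_P180314 in 11 of 30, A_52_P348256 in 2 of 30 and the Mup4 probe in 2 of 32. Without brown SVF array 2, the differences on A_51_P461703, A_51_P180314, A_52_P348256 and the Mup4 probe were 4.32, 4.16, 4.68 and 3.81 (limma adjusted p = 0.0464, 0.0274, 0.0462 and 0.0667). That array had the highest mature adipocyte and hepatocyte sums of its group, the hepatocyte sum mostly from Cyp2e1.

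In the epididymal depot the Mup1 probe A_51_P461703 was at -0.95, -1.31 and -1.49 in adipocytes, against -3.68, -6.71 below background and -1.17 in SVF. The Mup4 probe was at -0.70, -1.60 and -0.56 in epididymal adipocytes, against -3.00, -5.24 and -1.13 in epididymal SVF. On both, SVF array 3 was within the range of the adipocytes, so the fractions overlapped. The differences on A_51_P461703, A_51_P180314, A_52_P348256 and the Mup4 probe were 2.60, 3.23, 3.11 and 2.17, and none passed the test (limma adjusted p = 0.153, 0.0505, 0.126 and 0.211). Probe A_51_P180314 passed in 7 of 27 other settings and A_51_P461703 in 1 of 28, with lowest adjusted p-values of 0.0198 and 0.0451.

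Among adipocytes, inguinal lay above epididymal by 6.42 on A_51_P461703, 3.57 on A_51_P180314, 4.25 on A_52_P348256 and 5.79 on the Mup4 probe. Brown minus inguinal was -3.51, -3.11, -3.03 and -3.66 on the same probes. Neither pair of groups overlapped on any of the 4. In the order of means, inguinal adipocytes were first and brown adipocytes second on all 4 probes, and all neighbours from brown adipocytes downwards overlapped.

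Albumin was read beside the Mup probes. Alb stood at 0.60, 0.64 and 2.25 in inguinal adipocytes, against -6.21 below background, 2.09 and -0.66 in inguinal SVF, and inguinal SVF array 2 was the brightest SVF array for Alb as for the Mup1 and Mup4 probes. Outside inguinal fat Alb was spread otherwise than these probes. Its brown fractions overlapped, at the levels given above, and brown adipocyte array 2, the brightest of its group on the Mup1 and Mup4 probes, was the dimmest for Alb. In epididymal adipocytes Alb was at -1.76, -1.50 and -1.89, above all 3 brown adipocyte arrays. Other hepatocyte genes ran in different ways. Cyp2e1 was higher in inguinal adipocytes, at 5.92, 5.78 and 7.41, against 1.42, 2.76 and -2.00 in inguinal SVF. Serpinc1 also rose in inguinal adipocytes, by 1.96 (limma adjusted p = 0.00141). Ahsg, fetuin A, was at -4.17, -3.90 and -3.81 in inguinal adipocytes, against -1.98, 3.85 and 0.20 in inguinal SVF, and Fgb, fibrinogen beta, was below background on all 3 inguinal adipocyte arrays and at 1.16 on inguinal SVF array 2. Apob, Cps1 and Ttr were also below background on all inguinal adipocyte arrays. The part of any hepatocyte RNA in the Mup levels was not tested.

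**Figure D3:**
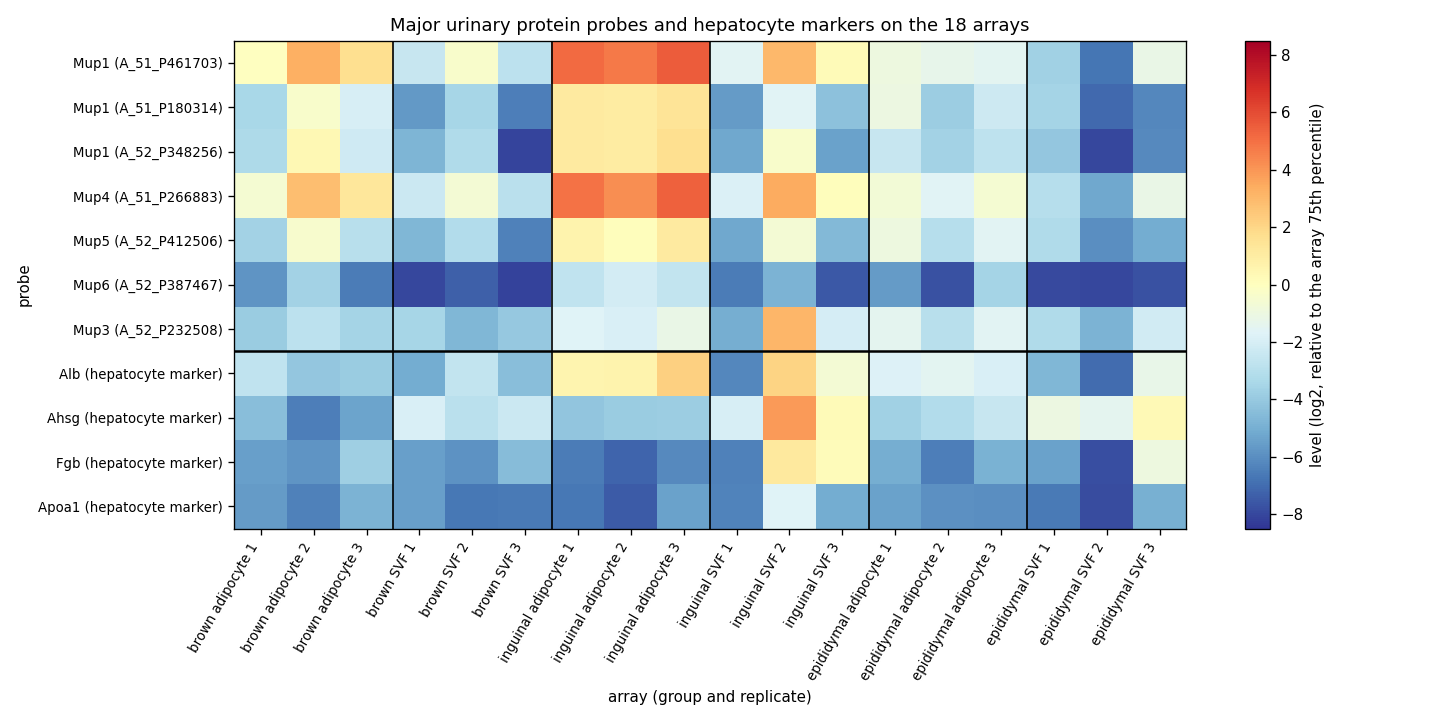
Levels (log2 relative to the 75th percentile, colour scale) of the probes named Mup1, Mup4, Mup5, Mup6 and Mup3 and of the hepatocyte genes Alb, Ahsg, Fgb and Apoa1 on each of 18 arrays, grouped by fraction and depot. The Mup1, Mup4, Mup5 and Mup6 probes are highest on the 3 inguinal adipocyte arrays, while Mup3, Ahsg, Fgb and Apoa1 are highest on inguinal SVF array 2. Alb is highest on inguinal adipocyte array 3, at 2.25, against 2.09 on inguinal SVF array 2. The hepatocyte genes drawn are a part of the marker list. Cyp2e1 and Serpinc1, higher in inguinal adipocytes than in inguinal SVF, are not drawn.

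Other members of the family were read from the same arrays. The Mup5 probe was at 0.64, 0.10 and 1.10 in inguinal adipocytes and its fraction difference there was 4.10 ± 1.17 (limma adjusted p = 0.0307). The Mup6 probe had a difference of 3.81 ± 0.89 in inguinal fat (limma adjusted p = 0.0123). The Mup3 probe A_52_P232508 differed from these: it was highest on inguinal SVF array 2, at 3.06, and its inguinal difference of -0.26 did not pass (limma adjusted p = 0.917). A second Mup3 probe was not above background on any array. A pair of probes without a gene symbol, which the array's annotation describes as of this family, also had other patterns. Probe A_52_P328440 was highest in epididymal adipocytes, with a mean of -2.76 against -3.77 in inguinal adipocytes, and its difference was 3.69 in epididymal fat (limma adjusted p = 0.0097) and 2.70 in inguinal fat (limma adjusted p = 0.057). Probe A_51_P435858 was highest on inguinal SVF array 2, at 0.04, and its inguinal difference of -1.24 did not pass (limma adjusted p = 0.41).

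Sequence shared between probes can carry shared signal. The Mup6 probe has a run of 19 bases in common with Mup1 probe A_51_P180314 and of 15 with A_52_P348256. The Mup1 probes A_51_P180314 and A_52_P348256, with the 20-base run shown in capitals above, had a correlation of r = 0.97 over the 18 arrays. A probe with no gene symbol, A_52_P139316, shares 31 bases with Mup1 probe A_51_P461703, was highest on inguinal adipocyte array 3 at 1.56 and had r = 0.93 with it. These r values are descriptions over arrays that share groups and scaling.

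Of 7 other genes on the list of urinary proteins and related lipocalins 5 were tested, and 3 rose in inguinal adipocytes, 1 in brown and 1 in epididymal, with none falling. List medians were 3.53, 2.28 and 2.25 in that order, against 0.01, 0.12 and 0.08 over all probes. Shares of all probes called higher were 9.17%, 10.9% and 16.3%. The gene that rose in all 3 depots was Rbp4, the retinol carrier, which liver and adipocytes both secrete. It rose by 3.53 ± 0.68 in inguinal fat, 2.28 ± 0.68 in brown fat and 4.02 ± 0.68 in epididymal fat.

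The counts of members whose 3 arrays did not overlap between depots are given with the same shares over all probes, and nothing is read from them, since depot bias chose the genes. In brown against inguinal adipocytes 2 of 8 probes were higher and 4 lower, where 19.0% of all probes were higher and 12.4% lower. In brown against epididymal adipocytes 3 were higher and 1 lower (24.7% and 23.4% of all probes). In inguinal against epididymal adipocytes 4 were higher and 2 lower (9.65% and 15.4%).

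The same counts were made between the SVF groups. In brown against inguinal SVF 1 of the 8 probes, Cpn2, was higher and 1, Apof, lower (12.3% and 6.23% of all probes). In brown against epididymal SVF Cpn2 was higher and none was lower (10.4% and 12.0%). In inguinal against epididymal SVF Apof was higher and none was lower (4.43% and 7.33%).

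Several regulators known to drive liver-type genes rose in adipocytes. Of 17 regulators 11 were tested, and 5 rose in brown, 4 in inguinal and 6 in epididymal adipocytes, while 1 fell, in inguinal fat. The shares of all probes called higher were 10.9%, 9.17% and 16.3% in the same order, and 4.75% were called lower in inguinal fat. List medians were 1.41, 1.03 and 0.97, against 0.12, 0.01 and 0.08 over all probes. Ppara, the nuclear receptor of fatty acid oxidation, rose by 3.69 ± 0.59 in brown fat, 4.04 ± 0.59 in the inguinal depot and 2.43 ± 0.59 in the epididymal depot. Cebpa, which both hepatocytes and adipocytes need, rose by 2.64, 3.32 and 1.96 and Stat5a, a transcription factor that the growth hormone receptor activates, by 1.68, 1.35 and 0.97 in the same order.

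Some regulators were called in fewer depots, which does not show that depots differ. Ghr, the growth hormone receptor, rose by 3.52 ± 0.56 in inguinal and 3.41 ± 0.56 in epididymal adipocytes. Hnf4a, a nuclear receptor that hepatocytes depend on, rose by 2.72 ± 0.60 in epididymal adipocytes (limma adjusted p = 0.00613). Nr1h4, the bile acid receptor, fell by 2.19 in inguinal adipocytes (limma adjusted p = 0.0298).

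Promoter sequence from RefSeq, on build GRCm38.p6 and from 250 bases before to 50 after the gene start, matched Cpn2, Proz and Mup4 of the 6 genes by symbol. The Cpn2 promoter, chr16:30267483-30267782 on the minus strand, and the Mup4 promoter, chr4:59960618-59960917 on the minus strand, are shown because one gene was brightest in brown and the other in inguinal adipocytes. Capitals mark matches to AGGTCA, the hexamer bound by nuclear receptors, to TTGCNNAA, a C/EBP-like motif, to TTCNNNGAA, a STAT-like motif, and to GTTAAT, all searched on both strands.
Cpn2 promoter: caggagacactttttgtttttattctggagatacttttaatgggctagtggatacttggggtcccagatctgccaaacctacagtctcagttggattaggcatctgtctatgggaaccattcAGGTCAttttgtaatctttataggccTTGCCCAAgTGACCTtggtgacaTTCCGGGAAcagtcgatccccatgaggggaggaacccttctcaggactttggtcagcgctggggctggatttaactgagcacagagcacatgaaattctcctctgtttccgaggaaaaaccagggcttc
Mup4 promoter: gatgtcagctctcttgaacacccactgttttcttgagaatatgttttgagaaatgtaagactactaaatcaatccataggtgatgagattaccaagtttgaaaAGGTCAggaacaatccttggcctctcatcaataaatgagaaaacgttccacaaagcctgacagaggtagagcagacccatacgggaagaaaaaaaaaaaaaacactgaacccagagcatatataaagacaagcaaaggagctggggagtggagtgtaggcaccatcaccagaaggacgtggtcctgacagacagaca
In the Cpn2 promoter AGGTCA begins at -128 on the given strand and at -93 on the other strand, TTGCNNAA at -102 and TTCNNNGAA at -79, and no 2 of these overlap. In the Mup4 promoter the 1 match is AGGTCA at -147, and in the Proz promoter it is GTTAAT at -211. Over all 32851 promoters of the same length, 16.3% hold AGGTCA, 10.8% TTGCNNAA, 8.3% TTCNNNGAA and 7.1% GTTAAT, so any one match is common. A match is a description of letters and not of binding.

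The genes whose level was most like each member's over the 18 arrays were sought among 14990 named genes. Pearson's r describes likeness here and carries no test, since the arrays share groups and scaling. Kng1 was most like Rab14, a small GTPase of endosome traffic (r = 0.93), Siva1, an adaptor in cell death (0.89), and Me3, a mitochondrial malic enzyme (0.87). Rab14 varied far less than Kng1, with group means from 3.04 in epididymal adipocytes to 3.96 in brown adipocytes. It followed Kng1 also in inguinal SVF, where it was at 3.97, 3.40 and 2.94 on arrays 1, 2 and 3.

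Cpn2 was most like genes known from brown fat and muscle. They were Fabp3, the heart fatty acid-binding protein (r = 0.95), Dio2, the deiodinase that makes active thyroid hormone (0.94), and Perm1, a regulator of muscle mitochondrial genes (0.94). Fabp3 averaged 5.98 in brown adipocytes, 1.45 in inguinal adipocytes and 0.31 in epididymal adipocytes, and 2.04 in brown SVF, -0.73 in inguinal SVF and -1.36 in epididymal SVF.

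Proz was most like Nlrp6, a NOD-like receptor (r = 0.92), Asgr1, a subunit of the liver's asialoglycoprotein receptor (0.92), and Gata4, a transcription factor of heart and gonads (0.90). Gata4 averaged 0.19 in epididymal adipocytes, against -3.84 in epididymal SVF, -3.49 in brown adipocytes and -4.64 in inguinal adipocytes. Apof, which was below background on 14 of 18 arrays, had weaker likeness, to Serpinf2, the inhibitor of plasmin (0.79), and the ribosomal protein genes Rpl22l1 and Rpl39 (0.77 each).

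Mup1 was most like Eno3, the muscle enolase (r = 0.84), Mup5 (0.83) and Tfr2, a transferrin receptor of the liver (0.82). Mup4 was most like Mup5 (0.87), Mup6 (0.85) and Eno3 (0.84). Eno3 averaged 2.55 in inguinal, 1.82 in brown and 0.97 in epididymal adipocytes, and 2.02 in inguinal, 0.92 in brown and 0.58 in epididymal SVF.

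**Figure D4:**
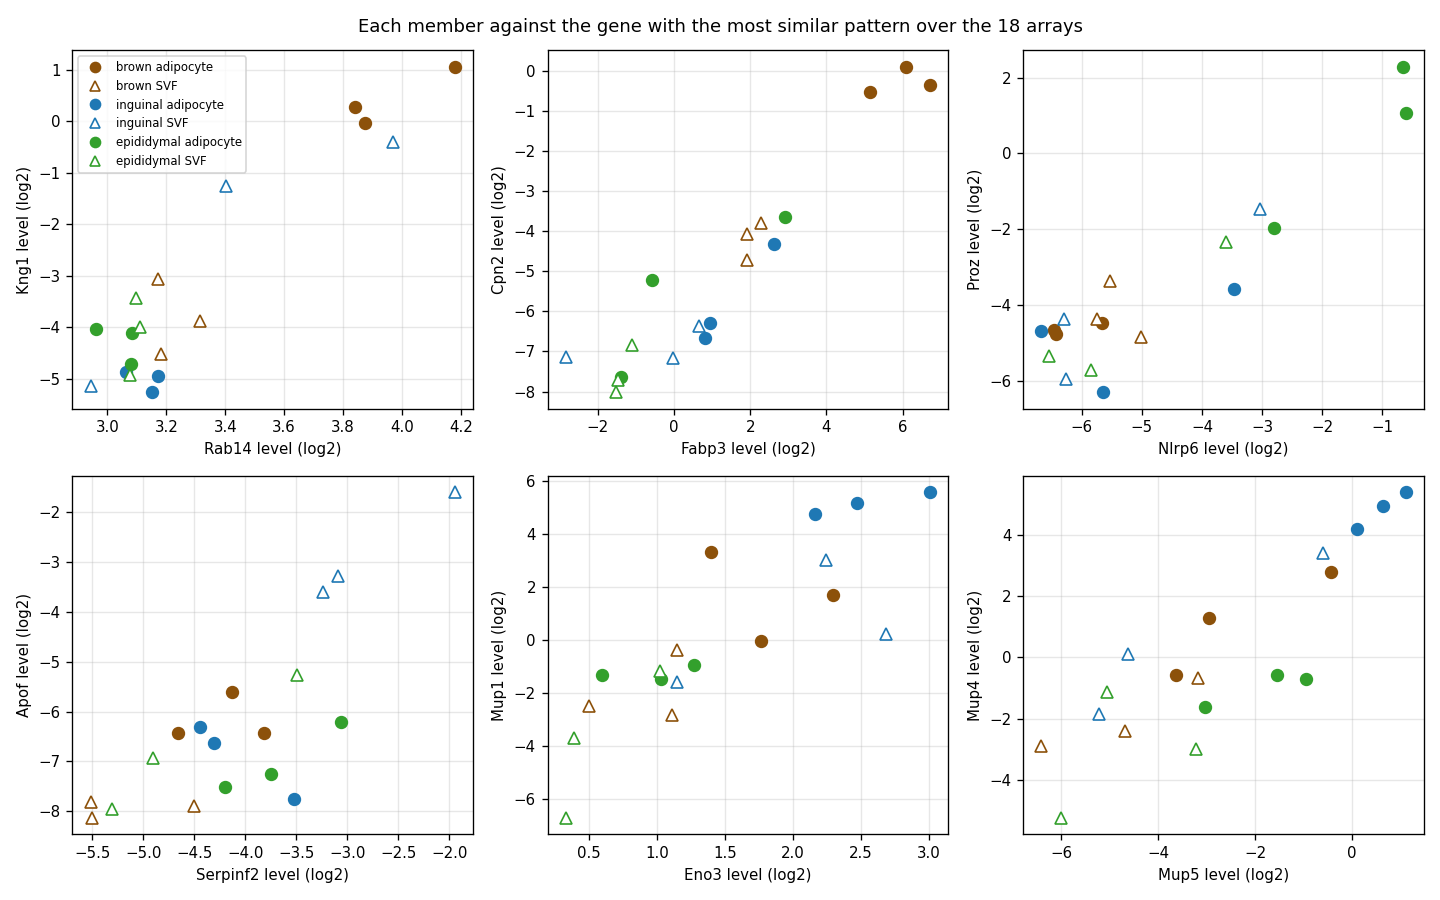
Level of each member (vertical axis) against the gene most like it (horizontal axis), both log2 relative to the 75th percentile, on 18 arrays, with filled circles for adipocytes and open triangles for SVF and 1 colour per depot. The panels pair Kng1 with Rab14, Cpn2 with Fabp3, Proz with Nlrp6, Apof with Serpinf2, Mup1 with Eno3 and Mup4 with Mup5; the brown adipocytes lie at the top right of the Cpn2 panel and, with inguinal SVF array 1 just below them, of the Kng1 panel, and the epididymal adipocytes at the top right of the Proz panel.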

How the data were processed

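The authors hybridised Cy3-labelled RNA to one-colour Agilent 4x44K mouse arrays and deposited each scan. Per the file headers, the processed signal is an intensity, corrected for background by Feature Extraction 10.5.1.1 (12 arrays) or 9.5.3.1 (6 arrays), with flags of 0 or 1 for each spot. The deposited series matrix holds log2 values of 31161 probes whose normalization is not stated; its column medians run from 8.12 to 8.13. Each matrix column ranked best with an array of its own group (18 of 18), but with the array of its own replicate number in 4 of 18, so replicate numbers differ between the 2 sources.

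Control spots and flagged outliers were left out, and spots of a probe were averaged over 41174 probes. The log2 signal minus the log2 75th percentile was fitted in R 4.3.3 with limma 3.58.1 (lmFit and eBayes, two-sided, a mean for each of 6 groups) for the 28595 probes that all 3 arrays of some group showed well above background. Benjamini-Hochberg adjustment ran over these probes, with a threshold of 0.05. The script was tested on simulated data. A bound ("at least N-fold") sets the bright group's mean against the faintest signal above background on the dim group's arrays. The normexp alternative (offset 50) used median spot and background signals, which all files hold. The number of arrays limits the precision.

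The members, lists and tests were chosen with earlier results of these data known. Named are all member probes, the 3 most alike genes of each member, and up to 4 called genes per direction and list, except 1 regulator that is not reported here. A gene is its brightest probe. Probe names were updated through the supplied RefSeq table by accession (24375 probes), symbol (6301) or synonym (2426), and 8072 keep their array name. Lists hold kinin, coagulation and apolipoprotein genes, urinary proteins with lipocalins, and regulators; marker lists cover the cell types that a fraction could hold. Alternatives were another background correction, normalization, probe filter, gene level, blocks for slide, scan day and replicate number, the depot's arrays alone, and each array left out.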

Additional observations from a re-analysis of the deposited data

Results flagged for a closer look

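The fitted adipocyte minus SVF differences of Apof had opposite signs in brown and inguinal fat. In brown fat it was 1.79 log2 units, but all 6 arrays were below background there, so no change was measured; it did not pass the test (limma adjusted p = 0.0643) and was -0.0767 in the deposited matrix. In inguinal fat it was -4.08, where all 3 adipocyte arrays lay below the SVF arrays, the group that holds its depot bias. The difference between the depots was not tested.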

How the results depend on the processing

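The counts of called probes, 5147 in brown fat (3127 higher, 2020 lower), 3980 in inguinal fat (2622 and 1358) and 6431 in epididymal fat (4655 and 1776), changed with the processing; the cause was not tested unless it lies in the setting. Normexp gave 2337, 504 and 1910. Quantile normalization changed the split to 2581 higher and 2536 lower in brown and to 3773 and 3851 in epididymal fat, and the deposited matrix to 3973 and 3557 in epididymal fat. Fitting all probes gave 10355 in brown fat, and keeping only probes above background on all 18 arrays gave 3385 in epididymal fat. The 6 inguinal arrays alone gave 382, and 1 slide with replicates 1 and 2 (chosen after seeing the data) 1753 in brown fat (399 higher, 1354 lower). With each array left out, counts were 3121 to 6219 in brown, 1575 to 4496 in inguinal and 2939 to 7739 in epididymal fat, lowest without brown adipocyte array 3, inguinal adipocyte array 3 and epididymal adipocyte array 1. Without inguinal SVF array 1 and epididymal adipocyte array 3 together the inguinal count was 2619.

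Of 11 member probes, those without overlap numbered 8, 4 and 6 in brown against inguinal, brown against epididymal and inguinal against epididymal adipocytes, and 4, 2 and 2 in the same pairs of SVF. Leaving out each array gave 8 to 9, 4 to 7, 6 to 9, 4 to 8, 2 to 4 and 2 to 5. The counts include the 3 probes that did not enter the fits. In brown against inguinal adipocytes the second Kng1 probe and Proz probe A_52_P203398 were counted, though below background in both groups. No share over all probes was made for the 11, and nothing is read from their counts. Shares for the 8 probes in the fits are given above. In brown against epididymal adipocytes the count was 7 under quantile normalization and 7 of 9 in the matrix, where the SVF counts were 2, 1 and 1. In inguinal against epididymal SVF it was 6 under normexp and 4 without the pair of libraries.

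In depot comparisons a turn of direction was counted only where the main difference exceeded the SD within groups. On that count directions turned for 17 member values, all of them uncalled or from depot comparisons. Under normexp these were Proz in brown fat (0.39), Kng1 (0.19) and Apof (0.28) in epididymal fat, Apof in brown minus inguinal adipocytes (-0.96), Kng1 in inguinal minus epididymal adipocytes (1.21), Cpn2 in brown minus inguinal SVF (-1.05) and Apof in brown minus epididymal SVF (0.17). Kng1 in inguinal minus epididymal adipocytes was also 0.35 under quantile normalization and 0.11 in the matrix, and Apof in brown minus inguinal adipocytes -0.36 and -0.11. Apof in brown fat was -0.0767 in the matrix. Kng1 in epididymal fat was 0.12 with slide as a random block, 0.17 without epididymal SVF array 1 and 0.04 without epididymal adipocyte array 2 (-0.58 to 0.17 with each array left out). Proz in inguinal fat was 0.31 without SVF array 2 (-1.94 to 0.31), and Apof in epididymal fat 0.45 without SVF array 3 (-0.90 to 0.45). Of the other member results and settings 1609 were counted as the same, 52 lost a call, 42 gained one and 29 moved. For fraction results the same meant an unchanged direction and side of the threshold, for depot results a shift under that SD. Small depot differences could therefore turn uncounted. Cpn2 in inguinal minus epididymal adipocytes did so, at -0.26 and, under normexp, 1.36.

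The labels name no source that arrays of the same replicate number share. In epididymal fat the 3 pairs of that kind deviated together (r of 0.37, 0.48 and 0.19, against -0.33 to 0.0023 for other pairings there), but over the 3 depots r ran from -0.21 to 0.48 in 9 pairs, so the numbers were not taken as pairs. With the replicate number as a block, counts over all probes were 5652, 4406 and 7040, Kng1 in inguinal fat lost its call (-2.76, adjusted p = 0.0548) and Cpn2 in epididymal fat gained one (2.02, adjusted p = 0.0391), while Mup1 probe A_51_P180314 in epididymal fat stayed uncalled (3.23, adjusted p = 0.0615). Signal near background limits Apof, Cpn2 and Proz most, since 4, 9 and 11 of 18 arrays were above it.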
